A study of Homo sapiens with 12 samples.

Results

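NRF2, the product of NFE2L2, is a transcription factor that switches on antioxidant and detoxifying genes. The gene that encodes it and 8 genes of this response are described here across human cardiomyocytes on 2 culture scaffolds. They are the rows of the deposited count table named NFE2L2, SLC7A11, GCLC, GCLM, GSR, TXNRD1, SRXN1, NQO1 and HMOX1, which is 9 of 60583 gene names. They were chosen by name, with earlier results of these data known. In resting cells the adaptor KEAP1 holds NRF2 in the cytoplasm and directs its destruction. Oxidants and electrophiles modify KEAP1, and NRF2 then enters the nucleus, pairs with a small MAF protein and binds antioxidant response elements beside its target genes. BACH1, a repressor that haem removes from DNA, competes for many of the same elements, HMOX1's in particular. Cardiomyocytes consume much oxygen and produce oxidants in their mitochondria, and the glutathione and thioredoxin systems that these genes serve remove them.

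The cells were cardiomyocytes derived from RUES2, an established human embryonic stem cell line, and are labelled wild type. From day 50 of differentiation they spent 3 days on an electrospun fibre scaffold. The PEDOT group was grown on 9.75% PEDOT:PSS/PVA, a conducting polymer blended with polyvinyl alcohol, and the PVA group on 8% PVA, which does not conduct. The series asks whether the conductive scaffold changes the function and maturation of these cells. All cells came from 1 cell line, and the labels do not state that the 3 biological replicates per scaffold were separate differentiations, so the p-values here reflect the spread of these particular samples and no more. Each replicate has 2 technical libraries, whose origin is not stated, and these were summed, giving 3 PEDOT sums and 3 PVA sums. A level is given in CPM (counts per M counts of the library), scaled by TMM, a correction for library composition.

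The 12 libraries held 19.1 to 30.95 M counts, and 44.5 to 57.5 M after summing. The cardiomyocyte label was met by 12 of 12 marker genes, each above 1 CPM, with a summed level of 69452 to 91118 CPM in PEDOT and 62163 to 79162 CPM in PVA. Pluripotency markers were near 0, with 5 of 5 under 1 CPM, and so were 5 of 6 macrophage markers. Fibroblast markers summed to 6793, 849.3 and 3535 CPM in PEDOT replicates 1, 2 and 3, and to 3833, 813.2 and 3130 CPM in PVA replicates 1, 2 and 3. The sums were lowest in replicate 2 on both scaffolds, but POSTN was highest there, at 41.0 CPM in PEDOT and 45.6 CPM in PVA. Of these markers 8 of 8 differed with the replicate number, beside 31.8% of all genes. In bulk RNA, fewer cells of a type and less RNA per cell cannot be told apart.

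GCLM and TXNRD1 are shown because their promoter windows hold letters of the response element, and NQO1 because it had the largest scaffold difference and its window holds none. The element was searched as TGACNNNGC on both strands, in windows of 250 bases before to 50 after each start site, from RefSeq on GRCh38.p14. A match was present in 4687 of 35116 windows, or 13.3%. A match is a description of the letters and does not mark a bound site. Windows were available for 6 of the 9 genes, with 8 windows among them, and 3 of these held a match. GCLM had 1 match, 34 bases before its start on the minus strand of chromosome 1. TXNRD1 has separate start sites, and both of its windows held matches. The window of the first held 2, one of them overlapping the start, and that of the other held 1 match 102 bases before the start. The windows of GCLC, NFE2L2, NQO1 and SRXN1 held none of these letters. Bases outside the windows were not searched, so a window without a match does not show that a gene lacks the element. Capitals mark the match in the 100-base stretches that follow, written 5′ to 3′ on the gene's strand. They are chr1:93909441-93909540 (GCLM, minus strand), chr12:104215604-104215703 and chr12:104286854-104286953 (TXNRD1, plus strand, first and second start), and chr16:69726561-69726660 (NQO1, minus strand).
GCLM: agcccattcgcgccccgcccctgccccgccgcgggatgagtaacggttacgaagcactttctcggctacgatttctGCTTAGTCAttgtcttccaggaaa
TXNRD1 first start: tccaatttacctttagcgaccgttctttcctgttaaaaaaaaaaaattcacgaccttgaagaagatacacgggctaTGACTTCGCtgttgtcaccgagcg
TXNRD1 second start: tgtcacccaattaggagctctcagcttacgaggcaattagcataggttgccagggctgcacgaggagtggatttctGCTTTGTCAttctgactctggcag
NQO1: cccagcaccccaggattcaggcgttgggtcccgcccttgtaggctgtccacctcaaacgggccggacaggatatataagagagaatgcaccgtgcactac

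The 9 genes were all expressed, and all 9 passed the filter on low counts. Per kilobase of exon (CPM per kb, mean of the 6 sums) TXNRD1 stood highest at 33.7, followed by GSR at 32.01 and NFE2L2 at 30.3. The ranges of these 3 over the sums overlapped (30.3 to 38.7, 28.6 to 36.8 and 26.8 to 34.3 CPM per kb), so their order is within the spread. GCLM followed at 4.07, HMOX1 at 3.51, GCLC at 3.41 and SLC7A11 at 3.31 CPM per kb, again with overlapping ranges. NQO1 was at 2.72 and SRXN1 at 2.25 CPM per kb. On this scale NFE2L2 was 7.44-fold above GCLM, the widest step in the order, but that step depends on counting shared exon bases in the length. SRXN1's place depends on the annotation: 2292 of its 2698 exon bases are shared on the same strand with another gene name, and reads there were not counted. On its 406 unshared bases SRXN1 was at 15.0 CPM per kb (10.0 to 20.6 over the sums), between GSR and GCLM. NFE2L2 shares 18.6% of its exon bases in this way and was at 37.2 CPM per kb on the rest.

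Between the scaffolds none of the 9 genes passed the test, and neither did any other gene. In edgeR's quasi-likelihood test 0 of 21298 genes had an adjusted p below 0.05, a share of 0%. At an unadjusted p below 0.05 there were 190 genes (0.892%), and 1 of the 9, NQO1, was among them. DESeq2 called 0 genes as well. With the replicate number as a block in the fit, 57 genes were called (0.268%) and again none of the 9. The genes' log2 fold changes ran from -0.44 to 0.22 with a median of -0.08, beside -0.006 over all genes, and 6 of 9 lay below 0, beside 51.9% of all genes. The sums of the 2 scaffolds did not overlap for 2 of the 9, NQO1 and HMOX1, beside 4.6% of all genes. In all 3 same-numbered pairs NQO1, GSR and GCLC were lower in PEDOT, 3 of the 9 beside 15.6% of all genes, and SLC7A11 and HMOX1 were higher, 2 of the 9 beside 13.3%.

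**Figure D1:**
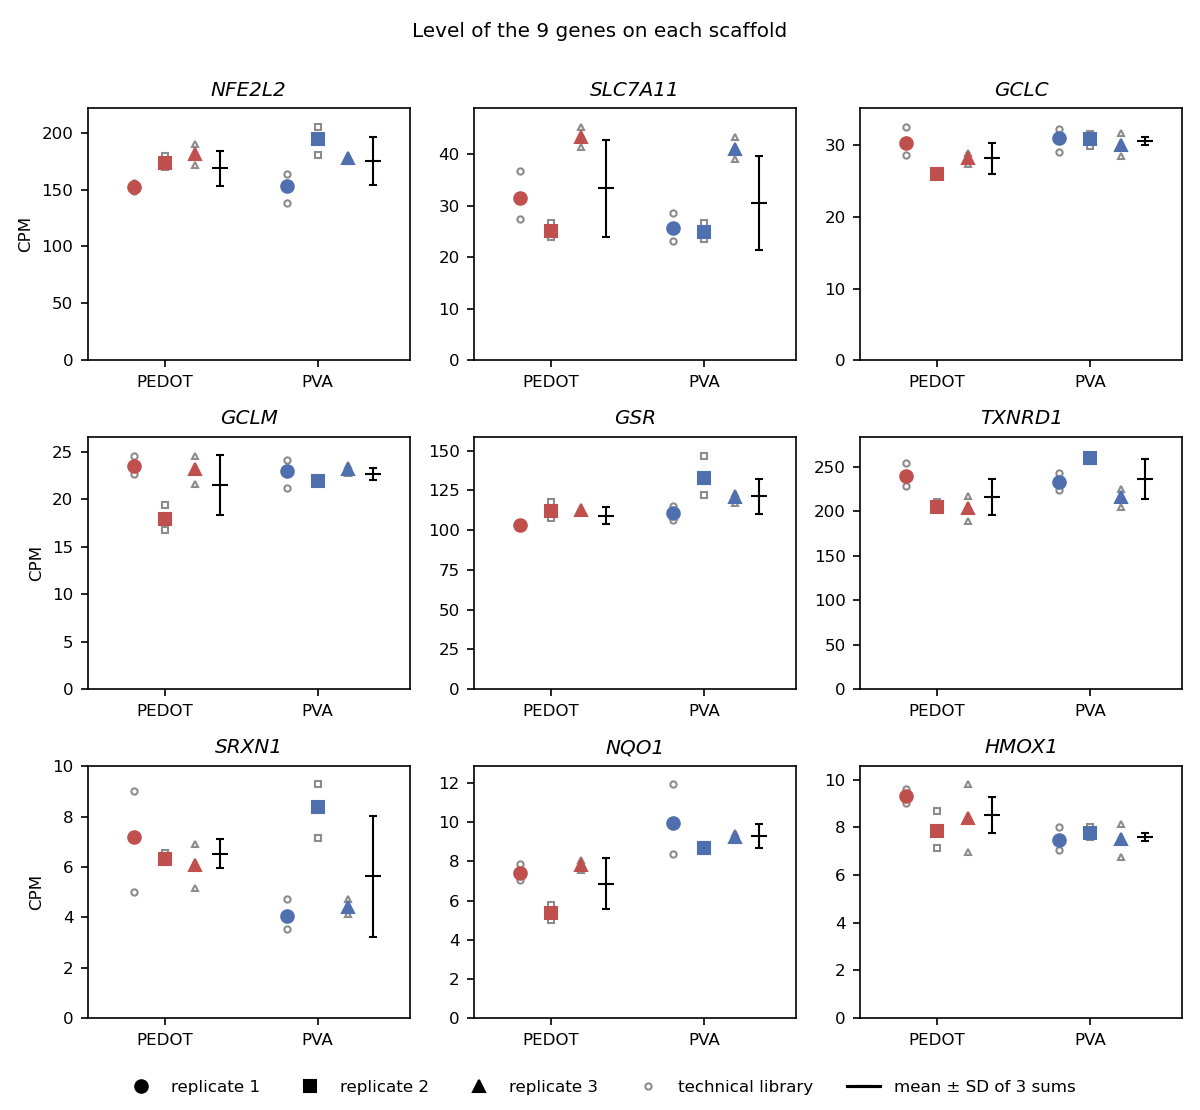
Level of each of the 9 genes in CPM on PEDOT (left, red) and PVA (right, blue). Large symbols are the 3 sums per scaffold (circle, square and triangle for replicates 1, 2 and 3), small grey symbols their technical libraries, and the bar is the mean ± SD of the 3 sums; only NQO1 and HMOX1 have sums that do not overlap between the scaffolds.

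NQO1, which reduces quinones in a step that does not release radicals and is a standard reporter of NRF2 activity, showed the largest scaffold difference in size. The gene lies at chr16:69706996-69726668 on the minus strand of hg38, and 575 of its exon bases lie opposite another gene name, in a table counted by strand. Its level was 7.41, 5.36 and 7.83 CPM in PEDOT replicates 1, 2 and 3, against 9.96, 8.70 and 9.26 CPM in PVA replicates 1, 2 and 3. Every PEDOT sum lay below every PVA sum, a pattern seen in 2.31% of all genes. Summed markers of other cell types also stood at different levels, though no gene passed the scaffold test without the replicate block. Smooth muscle and pericyte markers summed to 1753, 946.6 and 1304 CPM in PEDOT replicates 1, 2 and 3. In PVA replicates 1, 2 and 3 they summed to 2178, 1209 and 1833 CPM, so PEDOT was lower in 3 of 3 pairs. ACTA2 was the largest part, at 984.5 CPM on average, while MYH11, at 32.3 CPM, was higher in PEDOT in 3 of 3 pairs. Summed fibroblast markers were higher in PEDOT in 3 of 3 pairs, though PDGFRA was lower in PEDOT in pairs 1 and 3. Endothelial markers summed to 13.02 to 18.003 CPM in PEDOT and 18.8 to 22.3 CPM in PVA, without overlap, nearly all of it KDR, as the other 5 of 6 were under 1 CPM on average. Summed cardiomyocyte markers were higher in PEDOT in 3 of 3 pairs. TTN was the largest part of that sum, at 45185 CPM on average. Not every marker went this way, as NKX2-5 was lower in PEDOT in 3 of 3 pairs. The part of these markers in the differences of the 9 genes was not tested. NQO1 was likewise lower in every PEDOT technical library than in every PVA one, at 5.03 to 8.07 CPM in 6 PEDOT libraries and 8.38 to 11.9 CPM in 6 PVA libraries. The log2 fold change was -0.44 ± 0.18 (SE; 95% interval -0.86 to -0.02), with an adjusted p of 0.999986 in edgeR. With the replicate block it was -0.45 ± 0.12 with an adjusted p of 0.193 in edgeR. Averages were 6.87 ± 1.32 CPM in PEDOT and 9.31 ± 0.63 CPM in PVA (SD, n = 3 each). The counts behind each sum were few, 249 to 517.

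HMOX1, which opens the haem ring to release iron, carbon monoxide and biliverdin, went the other way. It stood at 9.32, 7.86 and 8.38 CPM in PEDOT replicates 1, 2 and 3, against 7.49, 7.79 and 7.50 CPM in PVA replicates 1, 2 and 3. The PEDOT sums were all above the PVA sums, but replicate 2 differed by only 0.01 on the log2 scale. Its technical libraries overlapped: they spanned 6.98 to 9.81 CPM in PEDOT and 6.77 to 8.14 CPM in PVA. The log2 fold change was 0.17 ± 0.13 (SE; 95% interval -0.14 to 0.47), and it did not pass edgeR's test.

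The glutathione genes lay close together on the scaffolds. SLC7A11 is the transport subunit of the cystine/glutamate exchanger, whose cystine supplies the cysteine of glutathione. The gene lies at chr4:138164097-138242349 on the minus strand of hg38, with 865 exon bases opposite SLC7A11-AS1. It measured 31.5, 25.0 and 43.4 CPM in PEDOT replicates 1, 2 and 3, and 25.6, 24.8 and 41.0 CPM in PVA replicates 1, 2 and 3, with overlapping groups and a log2 fold change of 0.13 ± 0.26 (SE). GCLC and GCLM are the catalytic and modifier subunits of glutamate-cysteine ligase, the first and rate-limiting enzyme of glutathione synthesis. GCLC was 30.3, 26.0 and 28.3 CPM in PEDOT, against 31.03, 30.8 and 30.0 CPM in PVA, in replicates 1, 2 and 3. PEDOT lay lower in 3 of 3 pairs, but PEDOT replicate 1 was above PVA replicate 3. GCLM was 23.5, 17.9 and 23.2 CPM in PEDOT, against 23.0, 22.0 and 23.2 CPM in PVA. Its PEDOT replicate 2 was the only sum under 20 CPM.

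GSR, which returns oxidised glutathione to its reduced form with NADPH, measured 103.1, 111.8 and 112.7 CPM in PEDOT replicates 1, 2 and 3, against 110.9, 132.7 and 120.6 CPM in PVA replicates 1, 2 and 3. PEDOT was lower in all 3 pairs and the groups overlapped by 1 sum, PVA replicate 1. Fold changes on the log2 scale were -0.15 ± 0.09 for GSR, -0.12 ± 0.09 for GCLC and -0.08 ± 0.13 for GCLM (SE). None passed edgeR's test. GSR reached an unadjusted p below 0.05 with the replicate block, as NQO1 did, and 8.32% of all genes did so.

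The thioredoxin pair and the factor itself also overlapped. TXNRD1, the cytosolic reductase that keeps thioredoxin reduced, was at 239.5, 204.5 and 203.3 CPM in PEDOT replicates 1, 2 and 3, against 232.7, 259.8 and 216.0 CPM in PVA replicates 1, 2 and 3. Its PEDOT replicate 1 was above PVA replicates 1 and 3. SRXN1, which repairs over-oxidised peroxiredoxins, was at 7.18, 6.33 and 6.06 CPM in PEDOT, against 4.07, 8.37 and 4.42 CPM in PVA. PVA replicate 2 alone stood above the PEDOT sums, and PVA replicates 1 and 3 below them. NFE2L2 was at 151.8, 173.1 and 181.0 CPM in PEDOT, against 153.2, 194.4 and 177.5 CPM in PVA. The log2 fold changes were -0.13 ± 0.11 for TXNRD1, 0.22 ± 0.29 for SRXN1 and -0.05 ± 0.12 for NFE2L2 (SE). NRF2 activity is set mainly through the stability of the protein, which RNA counts do not measure.

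**Figure D2:**
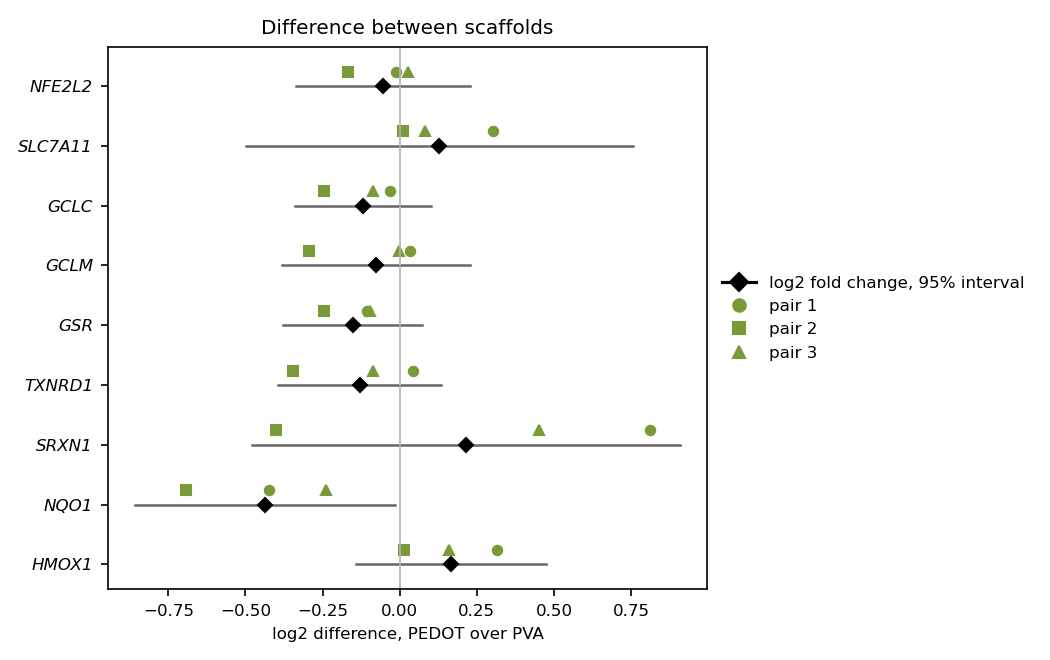
Log2 difference of PEDOT over PVA for the 9 genes. Black diamonds are edgeR's fold changes with 95% intervals, without the replicate block, and green symbols the differences within the 3 same-numbered pairs. Of the intervals drawn only NQO1's lies wholly below 0, and for 6 of the 9 the value lies left of the line. With the block, not drawn, GSR's interval of -0.29 to -0.01 lies below 0 too.

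The values below 0 were concentrated in pair 2. The median of the 9 genes was 0.03 in pair 1, -0.25 in pair 2 and -0.0008 in pair 3, beside -0.001, -0.02 and 0.004 over all genes. Summed over the 9, the level was 603.7, 577.9 and 614.1 CPM in PEDOT replicates 1, 2 and 3 and 597.9, 689.4 and 629.5 CPM in PVA replicates 1, 2 and 3. In pair 2, 7 of the 9 were lower in PEDOT, the exceptions being SLC7A11 and HMOX1 at 0.01 each on the log2 scale.

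Technical libraries of 1 replicate also differed. SRXN1 was widest, with 4.99 and 9.00 CPM in the libraries of PEDOT replicate 1, which is 0.84 on the log2 scale. Only 4.36% of the 848 genes at its level had a larger one. SRXN1 was also higher in the higher-numbered library of all 6 replicates. Which library numbers a replicate has differs between replicates, and the share of all genes with this pattern was not computed. Over the 9 genes the median of the largest of the 6 differences per gene was 0.27 on the log2 scale, beside 0.42 over all genes of any level. Among genes at each one's own level, the share with a larger difference was 6.86% for SLC7A11. It was 73.3% for GCLC, 72.1% for GCLM and 18.3% to 38.1% for the rest. In 9 of 9 genes the largest of these technical differences exceeded the scaffold difference. The largest of 6 differences between single libraries is unlike an average over summed replicates, and the share over all genes was not computed. For NQO1 the largest was 0.51, in PVA replicate 1, and the others ran from -0.20 to 0.09, beside a scaffold difference of -0.44.

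Shares within partner genes did not pass the test. Per length, GCLC made up 45.3 ± 2.19% of GCLC plus GCLM in PEDOT and 45.9 ± 1.00% in PVA (SD, n = 3 each). SLC7A11 made up 32.04 ± 5.24% in PEDOT and 30.1 ± 5.56% in PVA of its sum with SLC3A2, the heavy chain that anchors it in the membrane. TXNRD1 was 87.4 ± 2.21% in PEDOT and 88.6 ± 1.40% in PVA of the 3 thioredoxin reductases. HMOX1 was 17.2 ± 0.95% in PEDOT and 15.4 ± 1.09% in PVA of HMOX1 plus HMOX2, the constitutive haem oxygenase. The two-sided exact permutation p over the 20 assignments was 0.2 for HMOX1 and 0.5 to 0.7 for the others. Adjusted over the 4 shares it was 0.7 for all, and the smallest p this design allows is 0.1.

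Some of these genes differed with the replicate number. A test of any difference between the 3 numbers, with the scaffold in the fit, called 6776 genes (31.8%) and 2 of the 9, SLC7A11 and NFE2L2. SLC7A11 averaged 28.6, 24.9 and 42.2 CPM in replicates 1, 2 and 3, and both scaffolds were highest in replicate 3. Its 4 libraries of replicate 3 ran from 39.0 to 45.2 CPM and the other 8 from 23.1 to 36.6 CPM, without overlap. The log2 fold change was 0.76 ± 0.10 for replicate 3 over 2 and 0.57 ± 0.09 for 3 over 1 (SE; adjusted p = 6.45e-05 and 0.00108 in edgeR). In the lower-numbered technical libraries alone the call for 3 over 1 was lost (log2 fold change 0.44, adjusted p = 0.0825 in edgeR). Of SLC7A11's variance over the 6 sums, 92.7% lay between replicate numbers and 3.82% between scaffolds. Over all genes, replicate 3 over 2 called 19.4% and 3 over 1 called 13.2%, of which 6.79% were higher and 6.42% lower. The summed fibroblast, smooth muscle and epicardial markers were also higher in replicate 3 than in replicate 2 on both scaffolds. Single markers did not all go this way. The fibroblast marker POSTN was lower in replicate 3 than in replicate 2 on both scaffolds. The epicardial marker WT1 was at 30.8 CPM in PEDOT replicate 3 and 31.2 CPM in PEDOT replicate 2, though it was higher in replicate 3 in PVA. The epicardial rise in PEDOT was thus nearly all TBX18, at 20.1 CPM in replicate 3 and 2.72 CPM in replicate 2. The 3 sums were lower in replicate 3 than in replicate 1, but single markers differed in this. PDGFRA was at 20.8 CPM in replicate 3 and 12.5 CPM in replicate 1 in PEDOT, and at 28.3 and 13.6 CPM in PVA. TBX18 was also higher in replicate 3 than in replicate 1 on both scaffolds. The part of these markers in SLC7A11's difference was not tested.

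NFE2L2 averaged 152.5, 183.8 and 179.3 CPM in replicates 1, 2 and 3. It was 0.27 ± 0.08 higher on the log2 scale in replicate 2 than in replicate 1 (SE; adjusted p = 0.0216 in edgeR), a comparison that called 28.9% of all genes, 13.3% higher and 15.7% lower. The call was lost in lower-numbered libraries alone (log2 fold change 0.13, adjusted p = 0.301 in edgeR), and without the sum of PVA replicate 1 or 2 (adjusted p 0.0882 and 0.196 in edgeR). It was also lost without library 2 of PEDOT replicate 2 or library 3 of PVA replicate 1 or 2 (adjusted p 0.0541 to 0.0702 in edgeR). Over the 3 numbers its adjusted p was 0.0357. The call over the 3 numbers was lost on leaving out the sum of PEDOT replicate 1 or 3 or of PVA replicate 1 or 2 (adjusted p 0.0557 to 0.165 in edgeR). It was also lost on leaving out library 2 of PEDOT replicate 2, library 3 of PEDOT replicate 3, PVA replicate 1 or PVA replicate 2, or library 1 of PVA replicate 3 (adjusted p 0.0537 to 0.117 in edgeR). For the 9 genes the median share of variance between replicate numbers was 35.6%, beside 70.4% over all genes, and the scaffold share was 26.2%, beside 6.10%. NQO1 had 61.7% and HMOX1 54.9% of their variance between scaffolds.

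**Figure D3:**
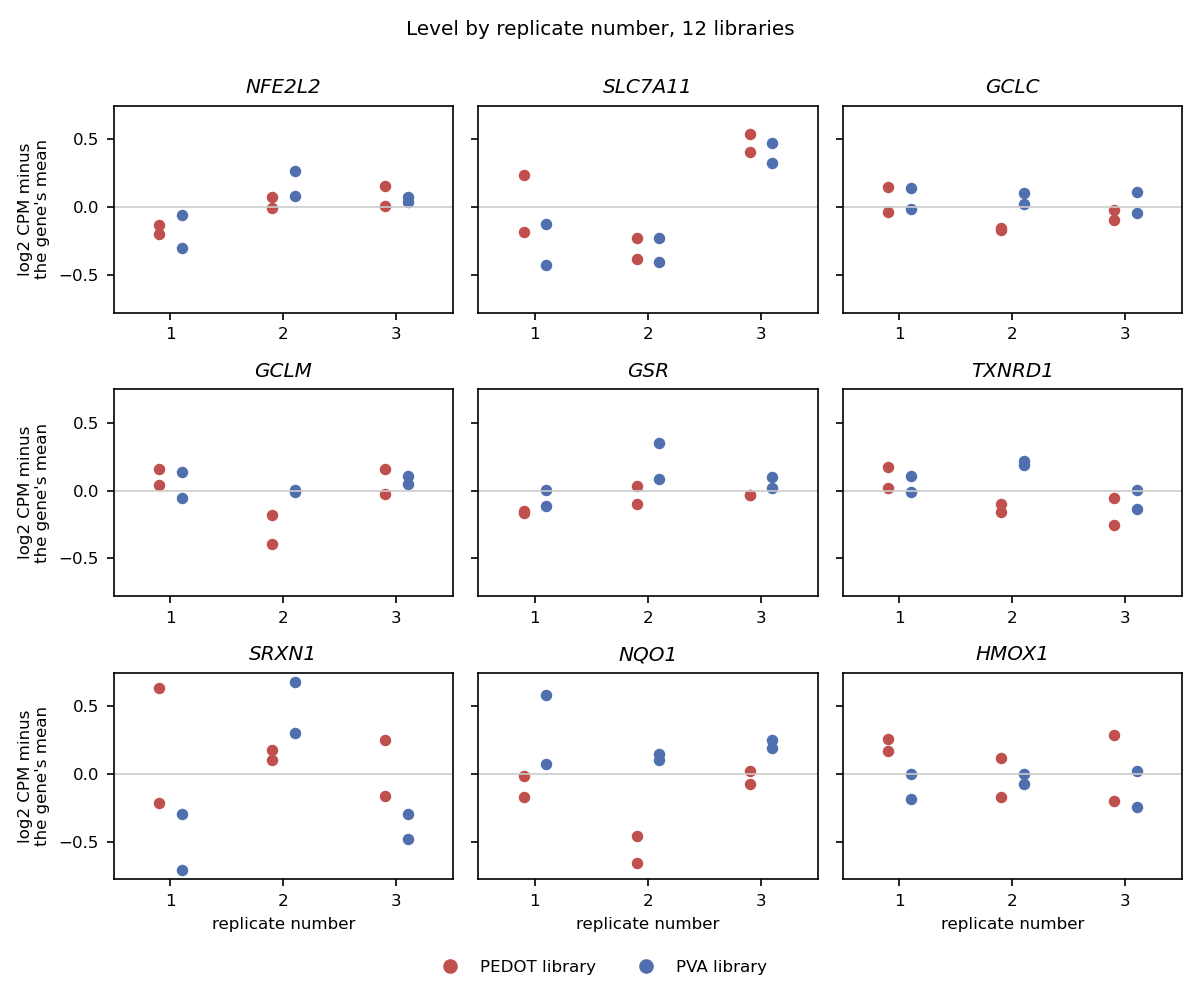
Log2 CPM of each gene minus its mean over the 12 libraries, by replicate number, with PEDOT libraries in red and PVA libraries in blue. SLC7A11 is highest in all 4 libraries of replicate 3, and NQO1's 6 PEDOT libraries lie below its 6 PVA libraries.

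Genes around the NRF2 pathway were read through a list of regulators and 6 lists of genes by function, called target lists here. A place in these lists does not make a gene an NRF2 target. None of their genes passed the scaffold test, with or without the block. In the 6 target lists together 81 of 83 genes were tested, and 58 were below 0 and 23 above. Their median log2 fold change was -0.07, beside -0.006 over all genes. As with the 9 genes, the median of pair 2 was lowest, at -0.16, beside -0.04 in pair 1 and -0.01 in pair 3. Below 0 were 15 of 24 glutathione genes, 12 of 15 thioredoxin and peroxiredoxin genes, 6 of 8 of NADPH supply, 15 of 20 of quinone, carbonyl and xenobiotic metabolism, 8 of 10 of haem and iron and 2 of 4 of superoxide and peroxide removal. The genes with the smallest p in each list follow. TXN, thioredoxin itself, was 29.1 ± 2.74 CPM in PEDOT and 35.0 ± 2.95 CPM in PVA (SD, n = 3 each), a log2 fold change of -0.27 ± 0.11. CBR1, a carbonyl reductase, was at -0.23 ± 0.11, GSTO1, an omega class glutathione transferase, at -0.21 ± 0.10 and PGD, which makes NADPH in the pentose phosphate pathway, at -0.17 ± 0.07. TFRC, the transferrin receptor that takes up iron, had a value above 0, at 0.22 ± 0.11. PRDX1, a peroxiredoxin, was at -0.22 ± 0.15, GSTZ1, a zeta class transferase, at -0.18 ± 0.11 and TKT, the transketolase, at -0.17 ± 0.14. BLVRA, which reduces biliverdin, was at -0.22 ± 0.12, SOD1, the cytosolic superoxide dismutase, at -0.17 ± 0.13 and CAT, catalase, at -0.07 ± 0.19. With the replicate block ALAS1, which starts haem synthesis, was at -0.13 ± 0.06 and SOD2, the mitochondrial superoxide dismutase, at 0.07 ± 0.08. AKR1B10, an aldo-keto reductase, was at -1.04 ± 0.53 and averaged only 0.31 CPM in PEDOT and 0.65 CPM in PVA. None passed the test in edgeR.

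Among the regulators, SQSTM1, the autophagy receptor p62 that sequesters KEAP1 and is itself an NRF2 target, had 419.8, 417.6 and 370.6 CPM in PEDOT replicates 1, 2 and 3, against 530.7, 556.8 and 408.4 CPM in PVA replicates 1, 2 and 3. PEDOT was lower in all 3 pairs, and PVA replicate 3 overlapped the PEDOT sums. Its log2 fold change was -0.31 ± 0.14, or -0.30 ± 0.07 with the replicate block (adjusted p = 0.137 in edgeR). MAFK, a small MAF partner, was at 0.16 ± 0.18. KEAP1 was 57.9 ± 3.08 CPM in PEDOT and 60.2 ± 3.09 CPM in PVA (SD, n = 3 each).

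Replicate number called 48 of the 81 genes tested from the 6 target lists (59.3%) and 5 of 13 regulators, beside 31.8% of all genes. MGST1, a microsomal glutathione transferase, was 1.74 ± 0.11 higher on the log2 scale in replicate 2 than in replicate 1 (SE; adjusted p = 5.42e-08 in edgeR). BACH2, a relative of BACH1, was lower in replicate 2 than in replicate 1 by 1.07 (log2 fold change -1.07 ± 0.12, adjusted p = 1.54e-05 in edgeR). AKR1C3 and AKR1C2, aldo-keto reductases that share much sequence with AKR1C1, were higher in replicate 2 than in 1, with counts that could be split among these copies. ABCC3, an exporter of conjugates, was lower in replicate 2 than in 1.

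SLC7A11 is also a target of ATF4, the transcription factor of the amino acid response. A list of 16 genes, ATF4 itself and targets of it, was therefore set beside SLC7A11. ATF4's own RNA was not called for replicate number (adjusted p = 0.287 in edgeR), with a log2 fold change of 0.07 ± 0.08 for replicate 3 over 2. Replicate number called 9 of the 16, beside 31.8% of all genes. Replicate 3 was higher than replicate 2 in 9 of 16 and lower in 0, beside 11.9% higher and 7.57% lower over all genes. Replicate 2 was lower than replicate 1 in 8 of 16 and higher in 0, beside 15.7% lower and 13.3% higher over all genes. PSAT1, of serine synthesis, had 26.2, 5.64 and 19.2 CPM in PEDOT replicates 1, 2 and 3 and 17.6, 7.35 and 17.2 CPM in PVA replicates 1, 2 and 3. Its log2 fold change for replicate 3 over 2 was 1.48 ± 0.17 (adjusted p = 2.88e-05 in edgeR). SLC7A5, a transporter of large neutral amino acids, had 1.00 ± 0.13 and TRIB3, a pseudokinase, 1.05 ± 0.17 for the same comparison. Both were lowest in replicate 2 on both scaffolds, as was SLC1A5, a glutamine transporter, at 1.05 ± 0.16, and VLDLR, a lipoprotein receptor, at 0.24 ± 0.08. For replicate 3 over 1, where SLC7A11 was higher, the median of the list was -0.02. ATF3, a stress-induced transcription factor, was higher in replicate 3 than in both others, with log2 fold changes of 0.60 ± 0.11 for 3 over 2 and 0.34 ± 0.11 for 3 over 1 (SE; adjusted p = 0.00115 and 0.0461 in edgeR); it is named after its values were seen. Between the scaffolds, CEBPB, a transcription factor, was at 0.26 ± 0.14 (log2 fold change and SE) and CBS, which makes cystathionine and averaged under 1 CPM on both scaffolds, at 0.39 ± 0.45, and neither passed the test in edgeR.

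**Figure D4:**
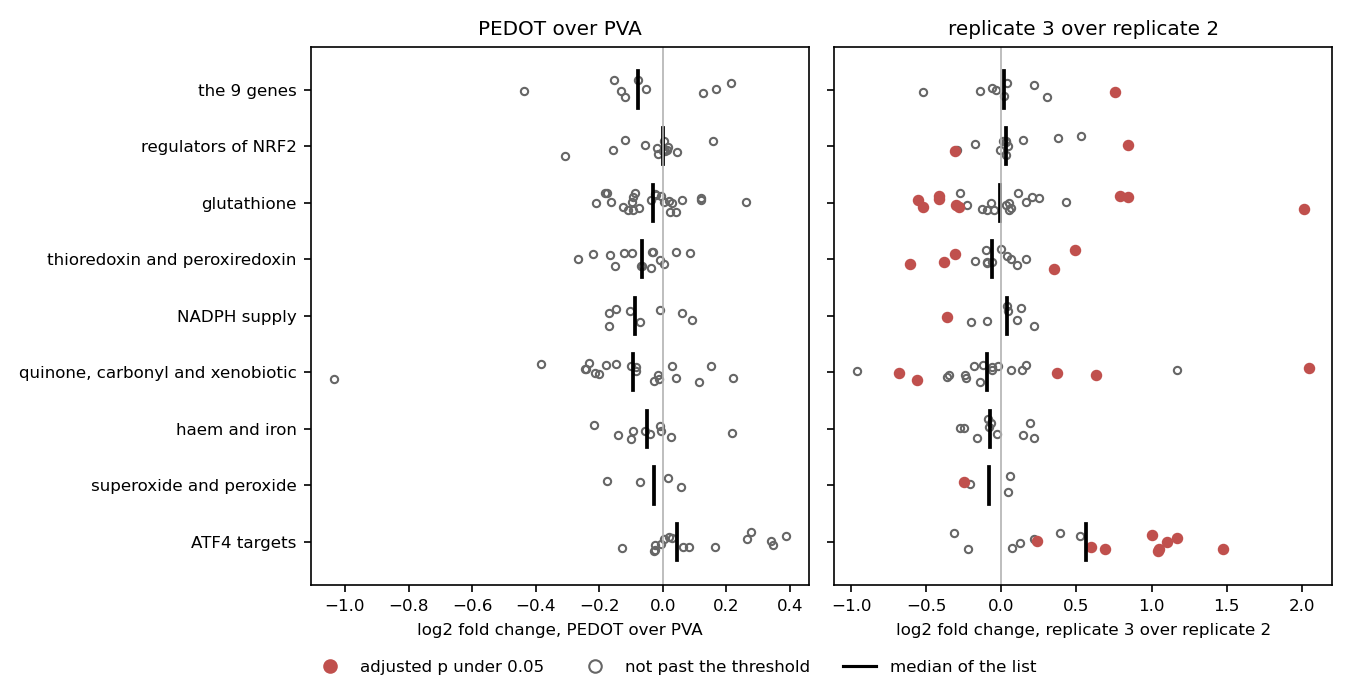
Log2 fold changes of the 9 genes and of the lists set beside them, PEDOT over PVA on the left and replicate 3 over 2 on the right. Each circle is a gene, red where adjusted p was under 0.05, and the black bar is the median. No circle is red for the scaffold, and 9 of 16 genes in the list of ATF4 and its targets are red on the higher side for the replicate number.

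Likeness over the 12 libraries was measured as the root mean square difference of centred log2 CPM, among genes of 5 CPM or more. The nearest to SLC7A11 were LINC02864 (0.13) and ADAMTS12 (0.15), and to NQO1 RHNO1 (0.14) and LAP3 (0.16). The nearest to NFE2L2 were ZNF415 and STYX, and to HMOX1 ZNF558 and DCBLD1. Among the 9 genes, GCLC and GCLM lay closest to each other at 0.10 on this scale.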

How the data were processed

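Ribodepleted total RNA was sequenced from cells detached with trypsin, per the labels' protocols. The deposited table holds raw read pair counts per gene name, made by the authors with featureCounts 2.0.1, reversely stranded, on GENCODE release 33, per the file headers. Build hg38 and the tools STAR, FastQC, edgeR, DESeq2 and featureCounts are listed in the submitters' processing notes; the aligner's version is not given in the sources used here. That command has no option for reads in several genes, so bases shared by gene names on 1 strand add no counts.

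Technical libraries were summed to 3 PEDOT and 3 PVA sums, because they are not separate replicates; they differed beyond counting noise (chi-square per gene 5.44 to 13.4). After filterByExpr (at least 10 counts, total at least 15) 21298 genes were left. They were tested with edgeR 4.0.16 under R 4.3.3 (TMM, glmQLFit, glmQLFTest, two-sided, Benjamini-Hochberg over all genes tested, threshold 0.05), on scaffold alone, or on scaffold plus replicate number for replicate comparisons. A standard error is the fold change divided by the root of F. DESeq2 1.42.0 was an alternative. Replicate numbers were taken to pair the samples. Each gene was first centred within each scaffold. After that, sums with the same number correlated across scaffolds at 0.678, 0.703 and 0.503. Different numbers gave -0.609 to -0.005. Centring on only 3 sums makes such values negative when the same-number values are positive, so they are no separate evidence of pairing. This pairing comes from the values, as no label states it. The procedure was tested on simulated data.

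The 9 genes and the lists were chosen with earlier results of these data known. Named are all 9, and, of the lists, up to 10 genes past the threshold by smallest p in a comparison, else at most 2 of smallest p per list; likeness names 2 genes each. Other named genes (KEAP1, SLC3A2, HMOX2) served as partners, and SLC7A5 and TRIB3 fell under the replicate rule. Exon overlaps come from the coordinates in the deposited table. All 175 symbols matched.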

Additional observations from a re-analysis of the deposited data

Results flagged for a closer look

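NQO1 in library 3 of PVA replicate 1 stood apart from the other 5 PVA libraries, at 11.9 CPM beside 8.38 to 9.47 CPM. It is the 1 library past Dixon's 95% critical value among 18 groups of 6 libraries, 9 genes on 2 scaffolds, and chance flags about 1 in 20 such groups. Without this library the log2 fold change of NQO1, PEDOT over PVA, was -0.35, or -0.37 with the replicate block, and it passed the test in neither fit.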

How the results depend on the processing

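Over 50 alternatives to the scaffold comparison, with and without the replicate block, NQO1, GSR, GCLC and TXNRD1 were below 0 and HMOX1 and SRXN1 above 0 in all 50. None of the 9 was called, except that NQO1 was with the block and every gene with a count (adjusted p 0.0271 in edgeR), where the members called number 1. The block changed no other call of the 9. NFE2L2 turned to 0.0097 (log2) with the block and higher-numbered libraries alone. Genes called with the block numbered 57, and 55 (RLE), 1 (upper quartile), 37 (library size), 389 (every gene with a count), 1 (mean CPM of 5), 96 (DESeq2), 16 (lower-numbered libraries) and 4 (higher-numbered).
Leaving out a replicate or library gave 0 genes called without the block and 4 to 284 with it. Over both fits the log2 fold changes were -0.56 to -0.29 for NQO1, -0.21 to -0.08 for GSR and -0.17 to -0.059 for GCLC. They were -0.21 to -0.023 for TXNRD1, 0.09 to 0.24 for HMOX1 and 0.013 to 0.64 for SRXN1. They were -0.14 to 0.038 for GCLM, -0.14 to 0.032 for NFE2L2 and -0.11 to 0.40 for SLC7A11. Share differences were -1.78 to 0.37 points for GCLC and -1.13 to 5.06 for SLC7A11. The GCLC share difference was 1.21 points in lower-numbered libraries alone.
For replicate number, SLC7A11 stayed called for any difference in all 26 alternatives and NFE2L2 in 15; for 3 over 1 SLC7A11 was called in 24 of 25, and for 2 over 1 NFE2L2 in 19 of 25. Of the 9 genes, 1 was called with library size only and with lower-numbered libraries; for 2 over 1 and for 3 over 2, 2 with every gene with a count; for 3 over 1, 0 in lower-numbered and 2 in higher-numbered libraries. Leaving out replicates or libraries, the calls were 1 to 3 (any), 0 to 3 (2 over 1), 1 to 2 (3 over 1) and 1 to 2 (3 over 2), and genes called 3501 to 6201 (2 over 1), 1558 to 3111 (3 over 1) and 1993 to 5330 (3 over 2). Genes called for 3 over 1 were 1835 with mean CPM of 5, and for 3 over 2 2626 in lower-numbered libraries. NFE2L2's 3 over 2 was -0.12 to 0.043, and 0.0041 in lower-numbered libraries. The causes were not tested. NQO1, HMOX1 and SRXN1 rest on 188 to 517 counts per sum, which limits their precision.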
